A study of Homo sapiens and Mus musculus with 5 samples.

Results

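The SNPs of chromosomes 16 and 17 made up 36 of the 347 SNPs, and 103 of the 984 fragments, of a reporter library built from common variants linked to schizophrenia. They were chosen by the chromosome in each SNP's name, with no use of any measured value: 19 SNPs in 55 fragments on chromosome 16 and 17 SNPs in 48 fragments on chromosome 17. Up to 3 fragments carried each SNP, with 50, 100 or 150 bases in front of the variant base, and 32 of the 36 SNPs had all 3 placements, 3 had 2 and 1 had 1. Of the 206 possible alleles, 175 were kept in the table of at least 1 cell line, 155 in all 4 tables and 31 in none, and 72 fragments were measured with both alleles. Allele numbers 1 and 2 follow the tables, and the base each number stands for was not used here. By the protein-coding gene table of GRCh38.p14, 27 of the SNPs lay inside a gene and 9 outside, with the build of the SNP positions not stated in the sources used here.

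The library was read by STARR-seq in SH-SY5Y (neuroblastoma, human), PC-12 (adrenal pheochromocytoma, rat, though labelled mouse), Neuro-2a (neuroblastoma, mouse) and HEK-293T (embryonic kidney, human). PC-12 had 2 RNA libraries, numbered 1 and 3, with no counts given for a replicate 2, and the other lines had 3 each. The reference for every line was the same 3 input libraries, amplified from the plasmid pool ahead of transfection, so the 4 lines share their input and are not independent of each other. Replicates are called biological in the protocols, but no label says which of them were transfected together.

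Enhancers are DNA segments that raise the transcription of a promoter, and most common variants tied to psychiatric traits lie in non-coding DNA where such segments are found. In STARR-seq a candidate fragment is cloned downstream of a minimal promoter, inside the transcribed region, so that an active fragment is copied into its own reporter RNA. The ratio of a fragment's RNA to its plasmid DNA then measures its activity, and the same ratio set between the alleles of a SNP measures allelic bias. The fragment is read on a plasmid, away from its chromosome, its neighbouring genes and its native chromatin.

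Levels are given as CPM, each count scaled by its library's normalised size, and libraries are listed in the order of their replicate number. Activity is fitted by edgeR as log2 of RNA over input, with its standard error (SE). A value of 0 is the typical allele of the library, so a positive value means more RNA per plasmid than most other alleles gave. An allele was called where the Benjamini-Hochberg adjusted p over all alleles of the line was at most 0.05. The RNA libraries held 5875437 to 10201521 counts and the input libraries 6380682 to 8421333. The input libraries resembled each other closely (r = 0.983 to 0.993 between log2 levels), whereas RNA replicate 1 stood apart from the others. Over alleles above 0 in both libraries, r between the log2 RNA to input ratios of replicates 2 and 3 was 0.850 for SH-SY5Y, 0.661 for Neuro-2a and 0.614 for HEK-293T. For pairs with replicate 1 it was 0.321 to 0.507 over the 4 lines. Among the chromosome 16 and 17 alleles the first figures were 0.832, 0.590 and 0.580, and the second 0.184 to 0.414. These ratios share their input, and r describes alleles of 1 library pair. Counts of 0 were also uneven: HEK-293T replicate 2 had 21 among its 166 chromosome 16 and 17 alleles. PC-12 replicate 3 had 12 among 174, each Neuro-2a library 8 to 11 among 162 and each SH-SY5Y library 4 or 5 among 168. Alleles with no 0 and every RNA library of a line on 1 side of the input mean were common. Over the whole library, 24.2%, 27.9%, 20.7% and 20.0% of alleles were above it in SH-SY5Y, PC-12, Neuro-2a and HEK-293T. In the same order, 25.7%, 29.7%, 21.6% and 18.8% were below it. The share of the library's alleles whose RNA lay beyond every input library in all 4 lines is not given here.

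Activity was called for 40 of the 175 chromosome 16 and 17 alleles in at least 1 line, 27 in 1 line and 13 in 2 or more. Over the whole library, 230 of 1625 alleles were called in 1 line and 106 in 2 or more. Such an allele was held by 25 of the 36 SNPs, and SNPs with a call were not counted for the whole library. In SH-SY5Y 27 of 168 were called (16.1%), 17 higher and 10 lower, beside 12.9% of all alleles, 7.43% higher and 5.51% lower. In PC-12 17 of 174 were called (9.77%), 13 higher and 4 lower, beside 10.4% of all alleles, 5.64% higher and 4.77% lower. In Neuro-2a 10 of 162 alleles were called (6.17%), 8 higher and 2 lower, where 5.78% of all alleles tested were called, 4.08% higher and 1.70% lower. In HEK-293T 8 of 166 were called (4.82%), 5 higher and 3 lower, beside 2.37% of all alleles, 1.35% higher and 1.02% lower. The shares thus lay near those of the whole library in Neuro-2a and PC-12 and above them in SH-SY5Y and HEK-293T, and no test was made of that difference.

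These counts depended on single libraries. Without RNA replicate 1, 94 alleles were called in SH-SY5Y, 155 in PC-12, 66 in Neuro-2a and 52 in HEK-293T, beside 54.9%, 90.1%, 41.3% and 31.8% of all alleles. PC-12 then had a lone RNA library, whose spread is taken from the input. HEK-293T had 25 calls without RNA replicate 2, beside 10.6% of all alleles, and 5 without RNA replicate 3, beside 1.99%. PC-12 had 133 without RNA replicate 3, beside 77.9%. Leaving out any 1 of the 3 input libraries left 0 member calls in every line by edgeR, and 3 in SH-SY5Y and 0 elsewhere over all alleles. In the full fit an unadjusted p of at most 0.05 was reached by 58, 55, 45 and 43 of these alleles in SH-SY5Y, PC-12, Neuro-2a and HEK-293T, beside 34.3%, 31.4%, 25.7% and 23.1% of all alleles.

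Chromosome 16 alleles had somewhat higher typical activity than chromosome 17 alleles in each line. Their median log2 activity was 0.37 against -0.05 in SH-SY5Y, 0.27 against 0.07 in PC-12, 0.24 against 0.04 in Neuro-2a and 0.33 against -0.13 in HEK-293T. No test was made of this difference, and the lines share the input. Over all alleles of the library the medians were -0.01, -0.01, 0.01 and -0.11 in the same order. The shares called did not keep that order: on chromosome 16, 18 of 87 alleles were called in SH-SY5Y, 7 of 90 in PC-12, 3 of 82 in Neuro-2a and 5 of 85 in HEK-293T, and on chromosome 17, 9 of 81, 10 of 84, 7 of 80 and 3 of 81, beside 12.9%, 10.4%, 5.78% and 2.37% of all alleles. Among the alleles called in 2 or more lines, 13 in all (7.43% of 175, against 106 or 6.52% of 1625 in the library), 9 were higher in each calling line and 4 lower, and none changed direction.

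The SNP at 19.392 Mb of chromosome 17 lay 4321 bases from MFAP4, the gene of an extracellular matrix glycoprotein found with elastic microfibrils, and was the member with the most calls, 8 higher out of 16 fitted values, all 16 of them positive. With 150 bases in front, allele 2 gave 3810.4, 7936 and 8234 CPM in SH-SY5Y RNA, 5391 and 8323 CPM in PC-12 RNA, 4170.3, 8817 and 7688 CPM in Neuro-2a RNA and 3387, 6843 and 7833 CPM in HEK-293T RNA. In the input it was at 1626, 1523 and 1560.5 CPM. All 11 RNA libraries lay above all 3 input libraries, and replicate 1 was the lowest RNA library of each line. Its log2 activity was 2.03 ± 0.30 in SH-SY5Y, 2.13 ± 0.19 in PC-12, 2.18 ± 0.30 in Neuro-2a and 1.85 ± 0.30 in HEK-293T (± SE), with edgeR adjusted p of 0.0209, 0.0107, 0.0243 and 0.0462. With 100 bases in front, allele 1 gave 2246, 4772 and 4379.5 CPM in SH-SY5Y RNA, 2965 and 3499.6 CPM in PC-12 RNA, 2698, 5397 and 5017 CPM in Neuro-2a RNA and 2215, 3640.0 and 3891 CPM in HEK-293T RNA. The plasmid input gave 1132, 1135 and 1148 CPM. Again no RNA library overlapped the input, and log2 activity was 1.68 ± 0.29, 1.51 ± 0.09, 1.99 ± 0.29 and 1.43 ± 0.21 in the same order of lines (edgeR adjusted p 0.0248, 0.00495, 0.0260 and 0.0409). No other chromosome 16 or 17 alleles were called in all 4 lines.

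The remaining alleles of the MFAP4 SNP were less even. Allele 2 with 100 bases in front gave 3177, 834 and 3815 CPM in SH-SY5Y RNA, 4698 and 663 CPM in PC-12 RNA, 3639, 949 and 1103 CPM in Neuro-2a RNA and 2973, 2471 and 785 CPM in HEK-293T RNA, against 576, 578 and 572 CPM in the input. Every RNA library was above the input, but here replicate 1 was the highest in 3 of the 4 lines, and SH-SY5Y replicate 3 and HEK-293T replicate 2 also stood high. Log2 activity of 2.14 ± 0.56, 2.24 ± 0.84, 1.76 ± 0.56 and 1.81 ± 0.52 did not pass the test (edgeR adjusted p 0.0579, 0.165, 0.127 and 0.123). Allele 1 with 50 bases in front gave 1535, 1005 and 574 CPM in SH-SY5Y RNA, 1012 and 489 CPM in PC-12 RNA, 1059, 894 and 238 CPM in Neuro-2a RNA and 1694, 623 and 949 CPM in HEK-293T RNA. Its input libraries had 692, 727 and 719.7 CPM. RNA libraries fell on both sides of the input in each line, and log2 activity was 0.50 ± 0.37, 0.09 ± 0.35, 0.07 ± 0.53 and 0.55 ± 0.39, with no call by edgeR.

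The SNP at 89.631 Mb of chromosome 16 lies inside DPEP1, which encodes a membrane dipeptidase of the kidney tubule. Its 6 alleles gave 22 positive values of 24, from -0.26 to 4.59 on the log2 scale, and 3 calls, all higher. Allele 1 with 150 bases in front, abundant in the input, gave 2425, 4164 and 3325 CPM in SH-SY5Y RNA, 2215 and 3255 CPM in PC-12 RNA, 2128, 3464 and 3327 CPM in Neuro-2a RNA and 2606, 3782 and 3633 CPM in HEK-293T RNA. The input held 1546, 1477 and 1588 CPM. All RNA libraries lay above all input libraries. Log2 activity was 1.05 ± 0.20 in SH-SY5Y and 1.04 ± 0.16 in HEK-293T, both called (edgeR adjusted p 0.0305 and 0.0423), and 1.00 ± 0.22 in Neuro-2a and 0.83 ± 0.17 in PC-12, which were not (0.0646 and 0.0608).

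Allele 2 of the same DPEP1 fragment was rare in the plasmid pool, and its RNA divided by replicate. It gave 119.6, 2873 and 2223 CPM in SH-SY5Y RNA, 117 and 2406 CPM in PC-12 RNA, 48.6, 1783 and 2304 CPM in Neuro-2a RNA and 142, 1886 and 2321 CPM in HEK-293T RNA, against 68.5, 70.2 and 68.4 CPM in the input. Replicate 1 was close to the input in every line, whereas replicates 2 and 3 were far above it: log2 ratios to the input were -0.51 to 1.04 for replicate 1 and 4.69 to 5.38 for the others. Put as a share of the fragment's reads, allele 2 made up 2.23% to 5.17% in the replicate 1 RNA libraries and 33.3% to 42.5% in those of replicates 2 and 3, against 4.30% in the input (mean of 3 libraries, SD 0.210). Fitted over all replicates, log2 activity was 4.59 ± 1.12, 4.18 ± 1.26, 4.37 ± 1.31 and 4.29 ± 1.00 in SH-SY5Y, PC-12, Neuro-2a and HEK-293T, with edgeR adjusted p of 0.0504, 0.116, 0.112 and 0.0910 and so no call. Without replicate 1, log2 activity was 5.17 for SH-SY5Y (edgeR adjusted p 0.000106), 4.92 for Neuro-2a (0.000305) and 4.82 for HEK-293T (0.000396). Each of these 3 lines then keeps 2 RNA libraries.

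With 100 bases in front, DPEP1 allele 1 was rare in the plasmid pool. It gave 156, 0 and 1213 CPM in SH-SY5Y RNA, 153 and 1186 CPM in PC-12 RNA, 233, 1924 and 1036 CPM in Neuro-2a RNA and 189, 1237 and 1073 CPM in HEK-293T RNA. In the input it was at 69.7, 70.0 and 60.9 CPM. Replicate 1 was the lowest non-zero library of each line, SH-SY5Y replicate 2 was 0, and the others were all above 1000 CPM. Log2 activity was 4.03 ± 0.80 in Neuro-2a, where it was called (edgeR adjusted p 0.0496), and 2.72 ± 2.15, 3.55 ± 0.73 and 3.31 ± 0.89 in SH-SY5Y, HEK-293T and PC-12 (not called, at 0.420, 0.0812 and 0.0960). Allele 2 gave 179.9, 429 and 316 CPM in SH-SY5Y RNA, 161 and 318 CPM in PC-12 RNA, 158, 443 and 220.3 CPM in Neuro-2a RNA and 271, 723 and 274 CPM in HEK-293T RNA. The plasmid input gave 109.6, 98.0 and 98.1 CPM. All its RNA libraries were above the input, and its log2 activity of 1.54 ± 0.37, 1.23 ± 0.35, 1.47 ± 0.51 and 2.00 ± 0.53 was not called in any line by edgeR. With 50 bases in front, allele 1 gave 1444, 1315 and 0 CPM in SH-SY5Y RNA, 434 and 632 CPM in PC-12 RNA, 570.2, 28.5 and 644 CPM in Neuro-2a RNA and 628, 766 and 629 CPM in HEK-293T RNA, against 427, 507 and 376 CPM in the input. Allele 2 of that placement gave 1097, 736 and 135 CPM in SH-SY5Y RNA, 488 and 379 CPM in PC-12 RNA, 0, 330.0 and 484 CPM in Neuro-2a RNA and 722, 1014 and 444 CPM in HEK-293T RNA. Its input libraries had 349, 365 and 301 CPM. Each had an RNA library at 0 in 1 line and RNA libraries on both sides of the input, and edgeR called neither.

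The SNP at 66.908 Mb of chromosome 16 lies inside CDH16, which encodes a cadherin of kidney epithelium. Its 5 alleles gave 16 positive values of 20, from -0.51 to 1.17, and 4 calls, all higher. With 50 bases in front, allele 1 gave 3118, 2788 and 2559.5 CPM in SH-SY5Y RNA, 3154 and 3308 CPM in PC-12 RNA, 2951, 2508 and 2968 CPM in Neuro-2a RNA and 2511, 1702 and 2292 CPM in HEK-293T RNA. The input held 1640.0, 1593 and 1596 CPM. All RNA libraries lay above all input libraries, HEK-293T replicate 2 by the least, and replicate 1 did not stand apart. Log2 activity was 1.01 ± 0.06 in PC-12, 0.85 ± 0.13 in Neuro-2a and 0.76 ± 0.12 in SH-SY5Y, all called (edgeR adjusted p 0.00526, 0.0264 and 0.0229), and 0.36 ± 0.17 in HEK-293T, not called (0.283). With 100 bases in front, allele 2, the allele kept there, gave 1862, 2349 and 2180.4 CPM in SH-SY5Y RNA, 2883 and 3933 CPM in PC-12 RNA, 1202, 2266 and 2583 CPM in Neuro-2a RNA and 1622, 2603 and 1957 CPM in HEK-293T RNA. In the input it was at 1476, 1505 and 1553 CPM. Its log2 activity of 1.17 ± 0.14 in PC-12 was called (edgeR adjusted p 0.0192), and 0.46 ± 0.31, 0.44 ± 0.12 and 0.38 ± 0.20 in Neuro-2a, SH-SY5Y and HEK-293T were not.

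The other 3 CDH16 alleles had no call in any line. Allele 2 with 50 bases in front gave 1039, 437 and 543 CPM in SH-SY5Y RNA, 986 and 563 CPM in PC-12 RNA, 1312, 761 and 1151 CPM in Neuro-2a RNA and 864, 538 and 486 CPM in HEK-293T RNA. The plasmid input gave 635, 629.8 and 685 CPM. Allele 1 with 150 bases in front gave 1012, 862 and 720.4 CPM in SH-SY5Y RNA, 1218 and 999.8 CPM in PC-12 RNA, 1018, 1337 and 1179 CPM in Neuro-2a RNA and 954, 888 and 902 CPM in HEK-293T RNA, against 981, 1009 and 1045 CPM in the input. Allele 2 with 150 bases in front gave 1287, 1348 and 1126 CPM in SH-SY5Y RNA, 1297 and 2187 CPM in PC-12 RNA, 1304, 0 and 814 CPM in Neuro-2a RNA and 1094, 2018 and 1506 CPM in HEK-293T RNA. Its input libraries had 1029, 1003 and 1067 CPM. For each of these, RNA libraries fell on both sides of the input, and edgeR called none of them.

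Nearer the start of chromosome 16, the SNPs around CORO7, a coronin of the Golgi, lay at 4413845, inside CORO7 and its readthrough CORO7-PAM16, and at 4419283 and 4420026, which were 2687 and 3430 bases from CORO7-PAM16. Their values ran from -1.98 to 0.98, -2.66 to 2.01 and -1.38 to 2.27, with 2 higher calls, both alleles of the fragment with 50 bases in front at 4419283. DNAJA3, a mitochondrial co-chaperone, holds the SNPs at 4447450 and 4448485. At 4447450, allele 1 with 100 bases in front gave 1671, 1605 and 1557 CPM in SH-SY5Y RNA, 1286 and 1669.6 CPM in PC-12 RNA, 875, 942 and 1479 CPM in Neuro-2a RNA and 1592, 1645 and 1572 CPM in HEK-293T RNA. The input held 646, 653 and 699.7 CPM. Every RNA library was above every input library, and in SH-SY5Y and HEK-293T the 3 RNA libraries lay close together. Log2 activity was 1.15 ± 0.15 in PC-12, 1.22 ± 0.12 in SH-SY5Y and 1.20 ± 0.14 in HEK-293T, all called (edgeR adjusted p 0.0207, 0.00620 and 0.0304), and 0.77 ± 0.26 in Neuro-2a (0.142). The SNP had 5 calls, all higher, while that at 4448485 had 1, lower.

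KCTD13, a cullin adaptor, lay 2330 bases from the SNP at 29928556, which had 1 higher call. The SNPs at 29983601 and 29989580 lie inside TAOK2, a kinase acting on stress signalling and dendrites; 19 of 20 and 21 of 24 of their values were positive, with 4 higher calls for 29983601 and 0 for 29989580 (edgeR). At 29983601, allele 1 with 150 bases in front gave 753, 509 and 585 CPM in SH-SY5Y RNA, 874 and 589.9 CPM in PC-12 RNA, 605, 709.9 and 647 CPM in Neuro-2a RNA and 653, 296 and 477 CPM in HEK-293T RNA. In the input it was at 293, 279 and 282 CPM. All RNA libraries exceeded the input, HEK-293T replicate 2 by very little. Log2 activity was 1.37 ± 0.22 in PC-12, 1.24 ± 0.20 in Neuro-2a and 1.07 ± 0.22 in SH-SY5Y, all called (edgeR adjusted p 0.0328, 0.0278 and 0.0352), and 0.67 ± 0.36 in HEK-293T (0.325).

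Among the SNPs further along chromosome 16, the one at 58505278, inside NDRG4, a gene of brain and heart, was the sole SNP with calls in both directions, both in SH-SY5Y. There, allele 1 with 150 bases in front reached 210.3, 1174 and 1445 CPM in RNA against 71.4, 79.6 and 82.6 CPM in the input, and allele 1 with 100 bases in front had 62.1, 61.8 and 45.8 CPM in RNA against 176, 154 and 151 CPM in the input. Log2 activity was 3.54 ± 0.72 for the first and -1.55 ± 0.31 for the second (edgeR adjusted p 0.0348 and 0.0342). CNOT1, the scaffold of the CCR4-NOT deadenylase complex, holds 58625904, with 1 higher call for an allele at only 12.8, 12.9 and 17.3 CPM in the input. The pair at 58647489 and 58648929, 17620 and 16180 bases from the glutamine transporter gene SLC38A7, had 1 higher call between them. NFATC3, a calcium-regulated transcription factor, holds 68133884 and 68155437, with 1 lower call at the second; PRMT7, a protein arginine methyltransferase, holds 68350593, with 1 lower call; and SPG7, a mitochondrial protease gene mutated in a form of spastic paraplegia, holds 89543010, with 1 higher call.

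FANCA, a core protein of the Fanconi anaemia DNA repair pathway, holds the SNP at 89811567, and none of its 20 values was positive, from -2.13 to -0.39, with 6 lower calls. Allele 2 with 100 bases in front gave 671, 758 and 388 CPM in SH-SY5Y RNA, 785 and 301 CPM in PC-12 RNA, 1131, 548 and 491 CPM in Neuro-2a RNA and 755, 456 and 578 CPM in HEK-293T RNA. The plasmid input gave 1559, 1485 and 1559.9 CPM. All 11 RNA libraries lay below all input libraries. Log2 activity was -1.39 ± 0.27 in SH-SY5Y and -1.43 ± 0.23 in HEK-293T, both called (edgeR adjusted p 0.0315 and 0.0463), and -1.05 ± 0.35 in Neuro-2a and -1.48 ± 0.47 in PC-12 (0.135 and 0.127). Allele 1 with 50 bases in front was called in HEK-293T and PC-12, at -0.96 ± 0.16 and -1.23 ± 0.10, and the other 2 calls were allele 1 with 100 bases in front in SH-SY5Y and allele 1 with 150 bases in front in HEK-293T, at -1.38 ± 0.29 and -1.01 ± 0.17.

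On chromosome 17, KANSL1, a subunit of the NSL histone acetyltransferase complex, holds the SNP at 46188473, whose allele 2 with 50 bases in front had the largest decrease among the alleles called in 2 or more lines. It gave 154, 186 and 128 CPM in SH-SY5Y RNA, 340.3 and 211 CPM in PC-12 RNA, 319, 212 and 206 CPM in Neuro-2a RNA and 261, 0 and 245 CPM in HEK-293T RNA, against 1053, 978 and 989 CPM in the input. All RNA libraries lay well below the input, HEK-293T replicate 2 at 0. Log2 activity was -1.86 ± 0.27 in PC-12, -1.996 ± 0.25 in Neuro-2a and -2.74 ± 0.21 in SH-SY5Y, all called (edgeR adjusted p 0.0284, 0.0189 and 0.00542), and -2.66 ± 1.89 in HEK-293T, not called (0.464). With 100 bases in front, allele 2 of this SNP was rare and gave 0, 446 and 631 CPM in SH-SY5Y RNA, 37.2 and 376 CPM in PC-12 RNA, 0, 150.0 and 767 CPM in Neuro-2a RNA and 15.8, 931 and 507 CPM in HEK-293T RNA, against 33.3, 31.1 and 32.0 CPM in the input. As at DPEP1, replicate 1 was near or below the input and the other replicates were above it, and edgeR called no line.

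The SNP at 63468418 lay 8643 bases, and that at 63471587 lay 5474 bases, from ACE, which encodes the angiotensin-converting enzyme. At 63468418, allele 1 with 100 bases in front gave 1754, 3213 and 3428 CPM in SH-SY5Y RNA, 1653 and 1927 CPM in PC-12 RNA, 783, 1709 and 1118 CPM in Neuro-2a RNA and 1888, 3507 and 4125 CPM in HEK-293T RNA. Its input libraries had 865, 839 and 893 CPM. RNA libraries fell on both sides of the input in Neuro-2a and all above it in the other lines. Log2 activity was 1.05 ± 0.10 in PC-12, 1.64 ± 0.26 in SH-SY5Y and 1.79 ± 0.27 in HEK-293T, all called (edgeR adjusted p 0.0117, 0.0227 and 0.0423), and 0.52 ± 0.30 in Neuro-2a (0.353). The SNP at 63471587 had no call, with values from -1.06 to 0.90.

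With 150 bases in front, both alleles of the ACE SNP at 63468418 stood high in PC-12. Allele 2 gave 4449 and 3894 CPM in PC-12 RNA, 711, 91.6 and 1647 CPM in Neuro-2a RNA, 1239, 1173 and 778 CPM in SH-SY5Y RNA and 686, 389.5 and 1112 CPM in HEK-293T RNA, against 1304, 1276 and 1291 CPM in the input. Allele 1 gave 961 and 1920.4 CPM in PC-12 RNA, 332, 315 and 621 CPM in Neuro-2a RNA, 399, 452 and 563 CPM in SH-SY5Y RNA and 212, 456 and 639.8 CPM in HEK-293T RNA, against 269, 342 and 343 CPM in the input. Both PC-12 libraries were above every RNA library of the other lines for each allele. Log2 activity in PC-12 was 1.70 ± 0.09 for allele 2 and 2.18 ± 0.34 for allele 1 (edgeR adjusted p 0.00477 and 0.0326). In the other lines it ran from -0.92 to -0.33 for allele 2 and from 0.36 to 0.52 for allele 1, with no call.

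The difference between lines was tested over the RNA libraries for the 155 alleles present in all 4 tables, and edgeR called none of them, as it called none of 1436 in the library (0.00%). An unadjusted p of at most 0.05 was reached by 4 of the 155 and by 40 of the 1436, or 2.79%, and DESeq2 called 1 and 23 (1.60%). Without RNA replicate 1 edgeR called 0 of the 155 and 1 of the 1436, or 0.0696%. With all libraries and no block, the ACE alleles with 150 bases in front had the smallest p-values of the 155, 0.0197 for allele 1 and 0.0344 for allele 2, followed by ACE allele 1 with 100 bases in front at 0.0395, and their adjusted p-values were 1.00. With the replicate number as a block, which pairs the RNA libraries between lines, edgeR again called none, and 17 of the 155 and 134 of the 1436, or 9.33%, reached an unadjusted p of at most 0.05. The order of the alleles changed: ACE allele 1 with 100 bases in front came first at 0.00189 and allele 1 with 150 next at 0.00477, at edgeR adjusted p of 0.127 and 0.210, while ACE allele 2 with 150 was at 0.0636 (adjusted 0.578), behind at least 17 others.

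The rest of chromosome 17 can be given by its counts. ELAC2, the enzyme that trims the 3′ ends of tRNA precursors, holds 12992667, whose allele 2 with 150 bases in front gave 1811, 2461 and 2093 CPM in SH-SY5Y RNA, 1732 and 2961 CPM in PC-12 RNA, 1359.5, 2227 and 2577 CPM in Neuro-2a RNA and 1205, 2415 and 2267 CPM in HEK-293T RNA. The input held 924, 912 and 881 CPM. All RNA libraries were above the input, and log2 activity of 1.17 ± 0.14 in SH-SY5Y and 1.37 ± 0.24 in PC-12 was called (edgeR adjusted p 0.0104 and 0.0428), that of 1.23 ± 0.27 in Neuro-2a and 1.03 ± 0.27 in HEK-293T not. YWHAE, the 14-3-3 epsilon adaptor protein, holds 1362031, with 1 lower call, and 1387656, with 2 lower calls for allele 1 with 150 bases in front, at -1.03 ± 0.17 in SH-SY5Y and -0.85 ± 0.11 in PC-12. SMG6, an endonuclease of nonsense-mediated decay, and SRR, which makes the NMDA receptor co-agonist D-serine, hold 2254480 and 2305605, and neither was called; the SMG6 values spanned only -0.82 to 0.70. DRC3, a part of the dynein regulatory complex of cilia, holds 18009234, with 2 higher calls for allele 1 with 50 bases in front, at 1.02 ± 0.20 in Neuro-2a and 1.49 ± 0.33 in SH-SY5Y. GID4, a substrate receptor of a ubiquitin ligase, holds 18055088, and B9D1, of the ciliary transition zone, holds 19347366, with 1 higher call each. SPECC1, a cytospin, holds 20028279, 20038864 and 20042974, with 1, 2 and 0 lower calls by edgeR and no higher one. The SNP at 45615569 lay 4777 bases from LINC02210-CRHR1, a readthrough that reaches the corticotropin-releasing hormone receptor gene, and 57660379 lies inside MSI2, an RNA-binding protein of the musashi family; neither was called.

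An allelic effect, the log2 activity of allele 2 minus that of allele 1 in the same fragment, was tested for 69 fragments in SH-SY5Y, 72 in PC-12, 63 in Neuro-2a and 68 in HEK-293T, and edgeR called none of them. The calls over the whole library were 0.166%, 0.00%, 0.187% and 0.00% of fragments, so few fragments anywhere in the library passed. An unadjusted p of at most 0.05 was reached by 14, 3, 8 and 3 of these fragments, beside 13.5%, 7.24%, 10.9% and 4.13% of all. DESeq2 called 1, 5, 9 and 1, beside 4.49%, 10.7%, 12.7% and 1.98% of all, and limma-voom 0 in each line, here and over all fragments (0.00%). The median effect was -0.06, -0.08, -0.02 and -0.06, beside 0.02, -0.02, 0.02 and 0.01 over all fragments, and the median SE was 0.50, 0.45, 0.85 and 0.63.

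The smallest adjusted p belonged to DRC3 and GID4 in Neuro-2a. With 100 bases in front at DRC3, allele 2 gave 404, 915 and 743 CPM in Neuro-2a RNA against 426, 455 and 445 CPM in the input, and allele 1 gave 42.1, 66.0 and 66.1 CPM in RNA against 164, 162 and 171 CPM in the input. Allele 1 fell short of its input in all 3 replicates, and allele 2 exceeded its own in replicates 2 and 3. The effect was 1.85, 2.38 and 2.07 in the 3 replicates and 2.10 ± 0.44 in the fit (edgeR adjusted p 0.298). It was -0.06 ± 0.57 in SH-SY5Y, -0.11 ± 0.27 in PC-12 and 2.16 ± 3.18 in HEK-293T. With 50 bases in front at GID4, allele 2 gave 1113, 1973 and 1568 CPM in Neuro-2a RNA against 838, 870.4 and 865 CPM in the input, and allele 1 gave 505, 804 and 371 CPM in RNA against 109, 120.2 and 121 CPM in the input. Both alleles were above their input in every replicate, allele 1 by more, and the effect was -1.74, -1.58 and -0.80 per replicate and -1.37 ± 0.34 in the fit (edgeR adjusted p 0.330). In SH-SY5Y it was -1.24 ± 0.33, in HEK-293T -0.72 ± 0.61 and in PC-12 -0.34 ± 0.46.

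At DPEP1 the fitted effect differed in sign between placements. With 150 bases in front allele 2 was the more active by fitted value, at 2.81 ± 1.17, 2.14 ± 1.35, 2.45 ± 1.49 and 2.64 ± 1.04 in SH-SY5Y, PC-12, Neuro-2a and HEK-293T. With 100 bases in front allele 1 was in 3 lines, at -1.52 ± 0.73 in PC-12, -2.26 ± 0.62 in Neuro-2a and -1.35 ± 0.80 in HEK-293T. The SH-SY5Y effect there was 0.30 ± 3.45. With 50 bases in front the effect was 1.31 ± 2.80, 0.08 ± 0.37, -0.34 ± 4.04 and 0.40 ± 0.40 in SH-SY5Y, PC-12, Neuro-2a and HEK-293T. None of these passed the test (smallest edgeR adjusted p 0.355). By replicate, the effect with 150 bases in front was 0.13, 3.94 and 3.90 in SH-SY5Y, 0.24 and 4.04 in PC-12, -0.97, 3.52 and 3.95 in Neuro-2a and 0.28, 3.47 and 3.83 in HEK-293T. Replicate 1 was within 1 log2 unit of 0 in each line and the other replicates were all above 3. For CDH16 with 50 bases in front the effect was -0.86 ± 0.31, -0.81 ± 0.31, -0.11 ± 0.24 and -0.50 ± 0.25 in the same order of lines. With 150 bases in front it was 0.52 ± 0.18, 0.58 ± 0.35, -1.73 ± 3.27 and 0.68 ± 0.30. For MFAP4 with 100 bases in front, the one MFAP4 fragment with both alleles, it was 0.29 ± 0.82, 0.12 ± 1.05, -0.50 ± 0.85 and 0.19 ± 0.72, with replicate 1 positive and at least 1 other replicate negative in each line.

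Leaving out RNA replicate 1 changed the allelic count of every line: edgeR then called 36 of 69 fragments in SH-SY5Y, 65 of 72 in PC-12, 18 of 63 in Neuro-2a and 18 of 68 in HEK-293T, beside 46.9%, 89.3%, 30.5% and 20.8% of all fragments. PC-12 without replicate 3 had 37 calls, beside 53.9% of all fragments. Both PC-12 settings keep 1 RNA library, whose spread is taken from the input. In the other 3 lines without replicate 1, 10 of 70 fragments (14.3%) were called in all of them, 11 (15.7%) in 2 and 20 (28.6%) in 1, beside 10.7%, 17.6% and 24.0% of 626 fragments in the library. With the values of Neuro-2a, SH-SY5Y and HEK-293T in that order, the positive ones among the 10 were DPEP1 with 150 bases in front (3.73, 3.92 and 3.65), YWHAE at 1387656 with 50 (3.60, 3.98 and 4.67), PRMT7 with 150 (1.04, 0.99 and 1.12) and DRC3 with 150 (1.46, 1.18 and 0.96). The negative ones were DRC3 with 50 (-0.80, -1.51 and -1.23), NDRG4 with 150 (-4.25, -3.40 and -2.09), CORO7-PAM16 at 4420026 with 150 (-3.47, -2.73 and -2.42), NFATC3 at 68155437 with 100 (-2.59, -1.98 and -2.18), SPECC1 at 20042974 with 100 (-1.55, -1.86 and -1.38) and ACE at 63468418 with 100 (-1.40, -1.84 and -2.08). These values come from 2 RNA libraries a line against the same input, which the 3 lines share.

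Between lines, edgeR called a different allelic effect for none of 61 member fragments and none of 514 in all (0.00%). At an unadjusted p of at most 0.05 there were 0 of the 61 and 1 of the 514, or 0.195%, and DESeq2 and limma-voom called 0 of the 61. In this edgeR fit, which had no replicate block, the smallest member p-values were 0.365 for MSI2 with 150 bases in front and 0.373 for CDH16 with 50. With the replicate number as a block edgeR again called none, and the order changed. CDH16 with 50 then came first at an edgeR p of 0.0965 and ELAC2 with 150 next at 0.120, while MSI2 was at 0.434. At MSI2, allele 2 gave 461, 452 and 701 CPM in SH-SY5Y RNA, 549 and 302 CPM in PC-12 RNA, 864, 772 and 589 CPM in Neuro-2a RNA and 489, 862 and 624 CPM in HEK-293T RNA, and allele 1 gave 406, 278 and 737, 393 and 473, 283, 491 and 147 and 346, 178 and 643 CPM in the same lines. The effects per line were -0.51 ± 0.31 in SH-SY5Y, -0.87 ± 0.43 in PC-12, 0.64 ± 0.48 in Neuro-2a and 0.10 ± 0.72 in HEK-293T.

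Placement was tested by setting the same allele of a SNP at one distance against another, for 131 pairs in SH-SY5Y, 140 in PC-12, 123 in Neuro-2a and 127 in HEK-293T. EdgeR called 3, 1, 0 and 0 of them (2.29%, 0.714%, 0% and 0%), where 2.60%, 4.25%, 1.22% and 0.337% of all pairs were called. An unadjusted p of at most 0.05 was reached by 28, 21, 22 and 17 pairs, beside 23.2%, 19.7%, 14.2% and 12.3% of all. DESeq2 called 35, 40, 24 and 17, beside 30.3%, 34.7%, 17.5% and 15.7%, and limma-voom 9, 5, 3 and 2, beside 6.37%, 6.45%, 3.86% and 1.52%. Without RNA replicate 1 edgeR called 67, 121, 35 and 42 pairs, beside 49.4%, 86.3%, 29.5% and 25.3% of all. Without RNA replicate 2 it called 5 in HEK-293T, beside 6.14%, and without RNA replicate 3 it called 3 in Neuro-2a and 90 in PC-12, beside 2.92% and 68.6%. With any 1 input library left out it called 0 in every line.

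At ACE, allele 1 with 100 bases in front against the same allele with 50 gave differences of 1.63, 2.44 and 1.97 in the 3 SH-SY5Y replicates. The second of those fragments had 319, 334 and 493 CPM in SH-SY5Y RNA against 475, 483 and 508 CPM in the input, within or below the range of its input, whereas the first was above its own in every replicate. The fitted difference was 2.02 ± 0.26 in SH-SY5Y (edgeR adjusted p 0.0356), and 2.48 ± 0.37 in HEK-293T, 2.18 ± 0.35 in PC-12 and 0.72 ± 0.35 in Neuro-2a, where it was not called (0.0785, 0.0614 and 0.461). DNAJA3 at 4447450 showed the same pair for allele 1, at 1.03, 1.66 and 1.66 by SH-SY5Y replicate, where the fragment with 50 bases in front had 1868, 1156 and 1121 CPM in RNA against 1548, 1465 and 1548 CPM in the input. The difference was 1.45 ± 0.24 in SH-SY5Y (edgeR adjusted p 0.0499), and 1.25 ± 0.47, 1.80 ± 0.38 and 1.65 ± 0.66 in Neuro-2a, HEK-293T and PC-12, not called. In both SNPs every replicate of every line was positive.

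The CDH16 pair ran the other way, allele 1 with 150 bases in front lying below the same allele with 50. Its differences were -0.95, -1.02 and -1.16 by SH-SY5Y replicate, and the fitted value was -1.05 ± 0.15 (edgeR adjusted p 0.0426). It was -0.88 ± 0.16 in PC-12, -0.59 ± 0.23 in Neuro-2a and -0.56 ± 0.20 in HEK-293T, without a call, and all 11 RNA libraries were negative. At SRR, allele 1 with 100 bases in front gave 70.1 and 25.7 CPM in PC-12 RNA against 231, 216 and 227 CPM in the input, and with 50 bases in front 738 and 546 CPM in RNA against 390.0, 417 and 403 CPM in the input. The difference was -3.06 ± 0.42 in PC-12 (edgeR adjusted p 0.0478) and -2.49 ± 0.76, -0.47 ± 0.53 and 0.06 ± 0.75 in Neuro-2a, SH-SY5Y and HEK-293T, which were not called. For MFAP4, allele 1 with 100 bases in front exceeded the same allele with 50 by 1.25 ± 0.63, 1.52 ± 0.44, 2.09 ± 0.80 and 1.00 ± 0.59 in SH-SY5Y, PC-12, Neuro-2a and HEK-293T, without a call.

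Input depth varied between alleles. Member alleles had a median of 4561 counts per input library, against 3448 over all alleles, and the 40 called in any line had a median of 7838, with 6 of them below 1567, the 25th percentile of the library. Allele 2 made up a median of 62.3% of the input reads of the 72 fragments with both alleles, from 0.670% to 94.6%, and 10 fragments had one allele below 10%, among them DPEP1 with 150 bases in front and KANSL1 with 100 and with 50.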

How the data were processed

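The tables deposited by the authors give raw read counts, unnormalised. By the file headers, each RNA or plasmid library has 1 column per allele, and each row is 1 fragment. Limma 3.40.6 is listed, with no role, in the submitters' processing notes; the aligner, counter and genome build were not stated in the sources used here. Kept alleles have at most 1 RNA and 1 input library at 0, and alleles left out of a table are written as 0 throughout. PCR reads are not independent molecules, so depth bounds counting error only.

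Counts were analysed in R 4.3.3 with the quasi-likelihood test of edgeR 4.0.16 (TMM scaling, mean count of at least 10, two-sided, Benjamini-Hochberg over all features of a line, adjusted p of 0.05), fitted on whole tables and then read out for chromosomes 16 and 17. Activity set RNA against input. Allelic and placement effects were interactions with RNA beside library terms, and differences between lines were F tests over the 11 RNA libraries. Each SE is the estimate divided by the square root of its F. A single spread serves RNA and input libraries. The steps were tested on simulated independent counts, which held no replicate set apart from the others and no deviation shared between lines. CPM values use TMM library sizes found jointly over 14 libraries, from alleles in all 4 tables.

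Members were set by chromosome, with no measured value used. That rule and the lists were made with earlier results of these data known. Every SNP is named once. Per-library values are given for the DPEP1, CDH16 and MFAP4 SNPs, for up to 8 alleles called in 2 or more lines by the largest median size, and for called allelic, placement and between-line effects, or the 2 with the smallest adjusted p where none was called. Other alleles shown were chosen after their values were seen. Alternatives were DESeq2 1.42.0, limma-voom (limma 3.58.1), limma on log2 CPM with a pseudocount of 1 and zeros taken as missing, DESeq2 size factors in edgeR, a minimum of 50 or none, the replicate number as a block, and leaving out each library.

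RNA libraries of the same number deviated together between lines (r = 0.146 to 0.708 for every such pair, after centring on the line). The main fits between lines did not pair them, and the number was used to pair them only in the alternative with a replicate block. Where replicate 1 stands apart, centring moves the other replicates of its line the opposite way. RNA libraries of unlike number were not compared between lines, so pairing of those other replicates by number was not tested. Between RNA and input the number did not pair libraries (r = -0.0898 to 0.171). All replicate pairs differed by more than sampling noise, with a chi-square per degree of freedom of at least 41.3. No fragment sequences are printed, since none were in the sources used here.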

Additional observations from a re-analysis of the deposited data

How the results depend on the processing

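DESeq2 size factors in edgeR, a minimum mean count of 50 and no minimum changed no count of calls on chromosomes 16 and 17 by more than 1.5 times. Counts below are in the order SH-SY5Y, PC-12, Neuro-2a, HEK-293T, each beside the share of the whole library called in that setting. Activity calls, 27, 17, 10 and 8 by edgeR, were 51, 68, 45 and 42 by DESeq2 (library 31.0%, 40.3%, 27.9% and 23.6%). With zeros as missing they were 41 in PC-12, 18 in Neuro-2a and 15 in HEK-293T (24.3%, 12.9% and 7.11%). Leaving out 1 RNA replicate in turn gave 21 to 94, 133 to 155, 13 to 66 and 5 to 52 calls (12.4% to 54.9%, 77.9% to 90.1%, 8.36% to 41.3% and 1.99% to 31.8%), and leaving out 1 input library gave 0 in each line. With the replicate block they were 0 in each line, and 0 for placement in SH-SY5Y and PC-12. The number does not pair RNA with input, so the block says nothing of effect size.

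Allelic calls, 0 in each line by edgeR, were 1, 5, 9 and 1 by DESeq2 (4.49%, 10.7%, 12.7% and 1.98%) and 1, 1, 5 and 2 with zeros as missing (3.16%, 1.89%, 10.3% and 1.16%). Over the RNA replicates left out they were 0 to 36, 37 to 65, 0 to 18 and 0 to 18 (0% to 46.9%, 53.9% to 89.3%, 0.187% to 30.5% and 0% to 20.8%). Placement calls, 3, 1, 0 and 0 by edgeR, were 35, 40, 24 and 17 by DESeq2 (30.3%, 34.7%, 17.5% and 15.7%), 9, 5, 3 and 2 by limma-voom (6.37%, 6.45%, 3.86% and 1.52%) and 16, 14, 8 and 4 with zeros as missing (15.4%, 18.2%, 9.41% and 5.30%). They were 3 to 67, 90 to 121, 0 to 35 and 0 to 42 over the RNA replicates left out (2.85% to 49.4%, 68.6% to 86.3%, 0.282% to 29.5% and 0.337% to 25.3%) and 0 for each input library left out. Between lines, DESeq2 called 1 allele for activity, and the replicate block left both counts at 0. The cause of these changes was not tested.

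Of 471 alternative values for 37 single results, 311 kept their side of the threshold, 154 were no longer past it, 6 came past it and 0 changed sign. The replicate block, and each input library left out, ended 35 of these 37, and the other 2 were not past the threshold in the main fit. Limma-voom ended 2, and leaving out RNA replicate 2 or 3 ended 3 and 9. With 2 or 3 RNA libraries a line, and counts of 0 in single libraries, effects with an SE near 1 could not be resolved.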

Other observations

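In the plasmid pool, 24 of the chromosome 16 and 17 alleles averaged under 100 CPM, a limit chosen after the values were seen. In SH-SY5Y RNA replicates 1, 2 and 3, 11, 11 and 15 of the 21 such alleles in the table were above their input, with a median log2 ratio of 0.60, 0.07 and 1.33 over libraries with a count. In PC-12 replicates 1 and 3, 10 and 13 of 24 were above it (medians -0.19 and 0.86). The numbers were 5, 14 and 12 of 17 in Neuro-2a (-0.26, 1.71 and 2.80) and 9, 12 and 12 of 20 in HEK-293T (-0.03, 3.13 and 0.64). HEK-293T replicate 2 had 8 of its 20 at 0. The medians of the alleles at 100 CPM or more lay from -0.08 to 0.17 in all 11 RNA libraries, which says nothing of how single alleles differed between replicates. The rare alleles of the whole library had medians of 0.21, 1.71 and 1.87 in Neuro-2a and 0.04, 0.91 and 1.20 in SH-SY5Y. Their medians were -0.06 and 1.66 in PC-12 and -0.03, 2.55 and 0.53 in HEK-293T. Those above their input were 59, 102 and 98 of 139 in Neuro-2a and 92, 121 and 130 of 199 in SH-SY5Y. In PC-12 they were 100 and 124 of 226, and in HEK-293T 97, 94 and 120 of 205. HEK-293T replicate 2 had 100 of these 205 at 0. Among the rare members were DPEP1 allele 2 with 150 bases in front, KANSL1 allele 2 with 100, NDRG4 allele 1 with 150 and YWHAE allele 2 at 1387656 with 50. What sets replicate 1 apart was not tested.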
